A study of Mus musculus with 9 samples.

Results

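The genes described here encode proteins that body fluids and epithelial surfaces use against microbes and tissue damage. They are the serum amyloids Saa1, Saa2 and Saa3, the iron-handling proteins lactoferrin (Ltf) and lipocalin 2 (Lcn2), haptoglobin (Hp), complement component C3 and the chitinase-like protein Chil1. All 8 were found by symbol among the 49585 rows of the count table. They were chosen by what they do and by their measured levels in the same tumours, since earlier results, the difference between the AAV groups among them, were known. Group differences of these 8 genes are therefore given as a description, with no test.

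Acute-phase proteins are those whose amount in blood climbs or drops in inflammation. The liver makes most of them under interleukin 6 and interleukin 1, through the transcription factors STAT3, NF-kB and C/EBP. Several of the same genes are also switched on in epithelium, fat tissue and myeloid cells. The mammary gland puts lactoferrin and Saa3 into milk, and neutrophils store lactoferrin and lipocalin 2 in their granules, and in humans also haptoglobin and the counterpart of Chil1.

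The samples were spontaneous breast adenocarcinomas of mice, flash frozen whole and sequenced as strand-specific total RNA. All animals carried K14-Cre, which drives the recombinase from the keratin 14 promoter of basal epithelium, Trp53wm-R172H/fl, and a Rosa26LSL CAS9-P2A-EGFP/+ allele that makes the Cas9 nuclease after Cre has acted. R172H is a missense change of p53, and the labels do not spell out wm. Tumours received adeno-associated virus (AAV) on days 0, 3 and 8 and were taken when the animals met criteria for euthanasia. The 6 AAV-∆mut-p53 tumours received the vector meant to delete mutant p53, and the 3 AAV-Control tumours a control vector. No ages are given. The titles of AAV-∆mut-p53 4 and 5 share a number, so they may come from 1 mouse, and nothing in the labels says which other tumours came from separate animals. The p-values below then measure only the spread between these samples.

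Total counts ran from 18581545 to 24567423 in AAV-∆mut-p53 tumours and from 26280250 to 30953250 in AAV-Control tumours, so every AAV-∆mut-p53 library was shallower than every AAV-Control library. Trp53, the targeted gene, had 13.1, 22.0, 39.0, 37.8, 40.9 and 41.5 CPM (counts scaled to a fixed library size, after TMM adjustment) in AAV-∆mut-p53 tumours 1 to 6, against 48.6, 39.3 and 42.3 CPM in AAV-Control tumours 1 to 3. By edgeR's quasi-likelihood test the difference was within the spread between tumours (log2 fold change -0.42, SE 0.37, false discovery rate (FDR) = 0.78). The epithelial marker Epcam was at 488 to 1004 CPM in 5 AAV-∆mut-p53 tumours and at 491 to 723.5 CPM in the AAV-Control tumours. AAV-∆mut-p53 2 stood apart, with 32.4 CPM of Epcam and a sum of 43762.5 CPM over 11 skeletal muscle genes, against at most 442 CPM in any other tumour. Of 19606 genes tested, edgeR called 0 at an FDR of 0.05, which is 0.0%.

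Promoter stretches of 6 of the 8 genes are shown because each holds 1 match to the same short C/EBP motif, TTNNGCAA, searched on both strands. They are from RefSeq on GRCm38.p6, written 5′ to 3′ on the strand of the gene, with the match in capitals. The capitals of Saa1, Saa2, Lcn2 and C3 read as the reverse complement of the motif.
Saa1, chr7:46743119-46743198, minus strand: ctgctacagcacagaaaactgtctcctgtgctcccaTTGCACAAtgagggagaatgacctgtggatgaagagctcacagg
Saa2, chr7:46751614-46751693, plus strand: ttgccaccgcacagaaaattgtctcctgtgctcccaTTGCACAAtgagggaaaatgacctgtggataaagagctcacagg
Saa3, chr7:46715732-46715811, minus strand: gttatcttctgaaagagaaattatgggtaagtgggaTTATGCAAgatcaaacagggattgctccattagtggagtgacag
Ltf, chr9:111019181-111019260, plus strand: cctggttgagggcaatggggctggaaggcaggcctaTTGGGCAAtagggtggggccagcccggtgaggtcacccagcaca
Lcn2, chr2:32387912-32387989, minus strand: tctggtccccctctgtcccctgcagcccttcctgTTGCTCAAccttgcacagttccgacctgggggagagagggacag
C3, chr17:57228138-57228217, minus strand: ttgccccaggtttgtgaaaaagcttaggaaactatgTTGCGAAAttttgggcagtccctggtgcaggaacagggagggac

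The table held promoters of 7 of the 8 genes, Hp not among them. In the 250 bases before the start, 6 of the 7 held the C/EBP motif, as did 9.56% of all 32851 promoters. The matches began 182 bases before the start in Saa1, 183 in Saa2, 99 in Saa3, 75 in Ltf, 216 in Lcn2 and 45 in C3. Chil1 held no C/EBP match and 1 stretch that matches the NF-kB consensus on both strands, a consensus that occurs in 7.25% of all promoters. The STAT motif TTCNNNGAA, present in 7.02% of all promoters, and the TATA box TATAAA, present in 12.4%, were found in none of the 7. The motifs were chosen after the sequences had been seen, and a match in letters does not show that a factor binds there.

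Saa1 and Saa2 are near copies of each other. Their promoters were identical at 238 of 251 aligned positions (94.8%), and their longest annotated coding transcripts, of 609 and 652 bases, at 572 of 655 (87.3%). Of the 560 stretches of 50 bases in the Saa1 transcript, 51 occur unaltered in that of Saa2. Reads from those stretches can be counted for either gene or for neither, so the split between both genes is less certain than their sum. Apart from a microRNA gene inside C3 on the same strand, no annotated gene overlapped the 8.

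Levels differed widely between the genes when set per kilobase (kb) of annotated exon. Lcn2 had the highest median over the 9 tumours, at 192.9 CPM per kb, with a range from 23.7 to 2418 CPM per kb. Hp followed at a median of 50.2 CPM per kb, C3 at 25.02, Chil1 at 11.6, Saa3 at 5.96 and Ltf at 3.32 CPM per kb. Saa1 and Saa2 were each at a median of 0.177 CPM per kb, near the limit of detection. Neighbours in that order overlapped, except that Ltf lay above Saa1 in 9 of 9 tumours. Lcn2 lay above Hp in 6 of 9 tumours, Hp above C3 in 7, C3 above Chil1 in 7, Chil1 above Saa3 in 6, and Saa3 above Ltf in 3. The exon lengths take in retained introns of minor transcripts, which lowers the level per kb.

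The plot of the 8 genes by tumour shows that they did not share 1 pattern. Of the 9 tumours, 5 were the highest for at least 1 gene. Saa3 and Lcn2 were highest in AAV-∆mut-p53 3, Ltf and Hp in AAV-∆mut-p53 6, Saa1 and Saa2 in AAV-∆mut-p53 5, C3 in AAV-∆mut-p53 2 and Chil1 in AAV-Control 3.

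**Figure D1:**
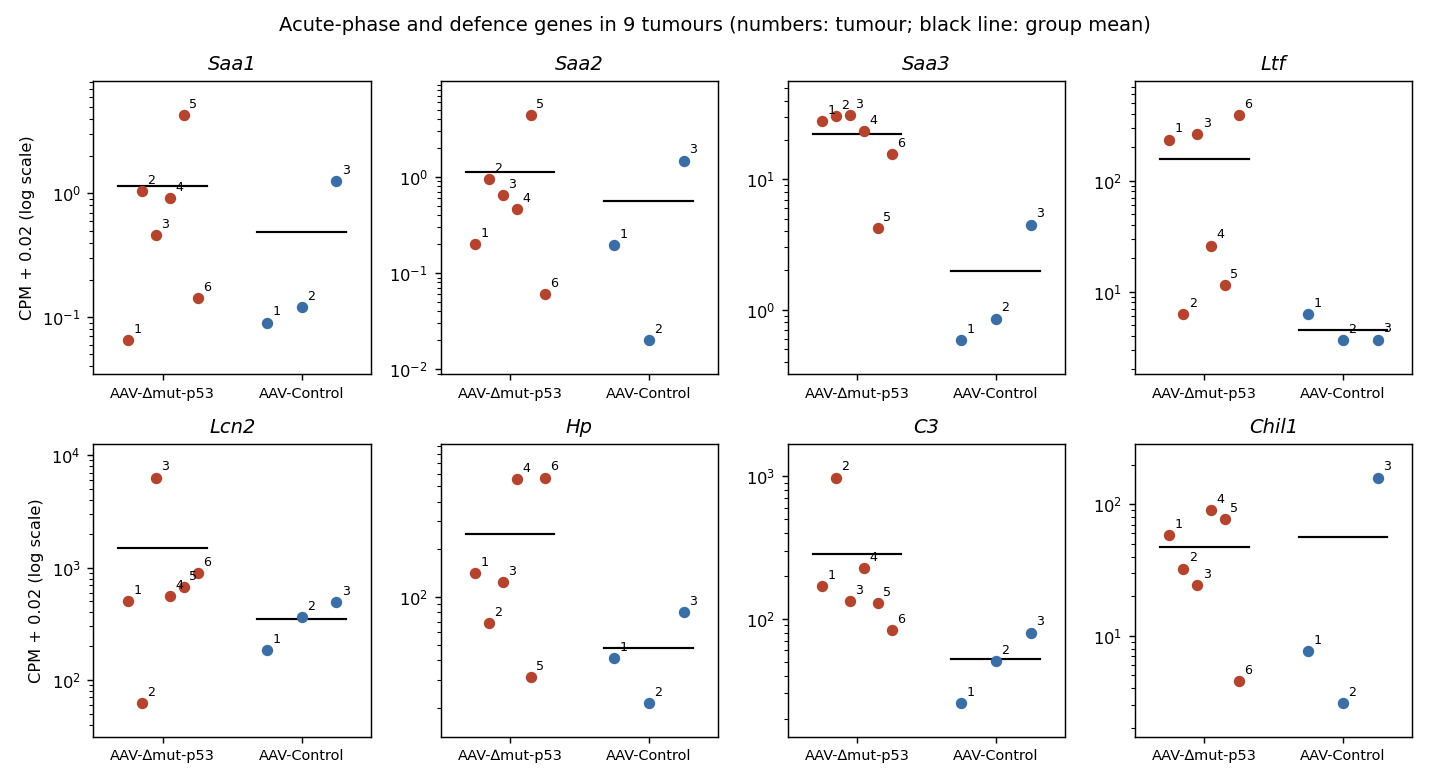
CPM of the 8 genes (log axis, 0.02 added) in the 6 AAV-∆mut-p53 tumours and the 3 AAV-Control tumours, with tumour numbers beside the points and black lines at the group means. All AAV-∆mut-p53 points of Ltf and C3 lie above the AAV-Control points, while those of Chil1, Saa1 and Saa2 mix.

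Among the serum amyloids, small lipid-carrying proteins of high-density lipoprotein, Saa3 is the one made mainly outside the liver. Saa3 (ENSMUSG00000040026.8, chromosome 7, 46711998 to 46715700) had 27.9, 30.6, 31.2, 23.3, 4.20 and 15.5 CPM in AAV-∆mut-p53 tumours 1 to 6, against 0.562, 0.834 and 4.48 CPM in AAV-Control tumours 1 to 3. Of the AAV-∆mut-p53 tumours 5 lay above every AAV-Control tumour, and the remaining one, number 5, lay just under AAV-Control 3. The means were 22.1 ± 10.5 CPM (SD, n = 6) in AAV-∆mut-p53 and 1.96 ± 2.19 CPM (SD, n = 3) in AAV-Control, a log2 fold change of 3.50 (SE 0.87). Leaving out AAV-Control 3 gave 4.97.

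Saa1 and Saa2 encode the serum amyloids that the liver secretes in the acute phase. Saa1 (ENSMUSG00000074115.5, chromosome 7, 46740497 to 46742980) had 1, 22, 9, 16, 97 and 3 counts in AAV-∆mut-p53 tumours 1 to 6, against 2, 3 and 31 counts in AAV-Control tumours 1 to 3. Saa2 (ENSMUSG00000057465.5, chromosome 7, 46751790 to 46754313) had 4, 20, 13, 8, 100 and 1 counts in AAV-∆mut-p53 tumours, against 5, 0 and 37 counts in AAV-Control tumours. The count of 0 in AAV-Control 2 allows up to 0.1 CPM by counting error alone. Both genes were highest in AAV-∆mut-p53 5 and next in AAV-Control 3, so the groups overlapped.

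The sum of Saa1 and Saa2 was 8.72 CPM in AAV-∆mut-p53 5, where it exceeded Saa3. In the other AAV-∆mut-p53 tumours Saa3 was 15.8 to 124 times that sum, and in AAV-Control tumours 1.66 to 8.33 times. The log2 fold change was 1.29 (SE 1.33) for Saa1 and 1.03 (SE 1.43) for Saa2. Without AAV-∆mut-p53 5 they were 0.14 and -0.26, and without AAV-Control 3 they were 3.66 and 3.59. Saa4, the fourth gene of the cluster, which is made at a steady level by the liver, had 1 count in each of 2 AAV-∆mut-p53 tumours and 0 elsewhere.

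Lactoferrin and lipocalin 2 both withhold iron from microbes, lactoferrin by binding iron itself and lipocalin 2 by binding bacterial siderophores. Ltf (ENSMUSG00000032496.7, chromosome 9, 111019271 to 111042767) had 233, 6.24, 263, 26.0, 11.5 and 390.4 CPM in AAV-∆mut-p53 tumours 1 to 6, against 6.22, 3.64 and 3.68 CPM in AAV-Control tumours 1 to 3. The groups did not overlap, but AAV-∆mut-p53 2 was barely above AAV-Control 1, and 3 tumours, numbers 1, 3 and 6, held nearly all of the signal. The means were 155.1 ± 162.9 CPM (SD, n = 6) in AAV-∆mut-p53 and 4.51 ± 1.48 CPM (SD, n = 3) in AAV-Control, a log2 fold change of 5.10 (SE 1.45), with 4.58 to 5.40 when each tumour was left out in turn. Its within-group SD on the log2(CPM + 1) scale was 2.13, above that of 99.3% of tested genes.

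Lactoferrin is also a protein of neutrophil granules, and the granule genes Camp and Ngp were compared with it by tumour. AAV-∆mut-p53 6, the tumour with most Ltf, had 0.0815 CPM of Camp and 0.204 CPM of Ngp, among the lowest of the 9. AAV-∆mut-p53 5, with 11.5 CPM of Ltf, had 2.66 and 8.45 CPM of them. AAV-∆mut-p53 3, with 263 CPM of Ltf, had 0.635 CPM of Camp and the most Ngp of the 9, 13.7 CPM. Of 24 neutrophil markers, 17 were tested and all 17 had a higher mean in AAV-∆mut-p53 tumours, 2 of them at an unadjusted p under 0.05 by edgeR. Over all tested genes 55.6% had a higher mean, and 3.82% were higher at that p. Without AAV-∆mut-p53 2, 16 of the 17 markers had a higher mean. Their summed level was 69.9 to 267 CPM in AAV-∆mut-p53 and 10.9 to 79.7 CPM in AAV-Control, with AAV-∆mut-p53 3 the highest of the 9 and AAV-∆mut-p53 6 next, at 172 CPM. Mmp9, a protease of neutrophils and other cells, made up 104.1 CPM of the sum in AAV-∆mut-p53 6 and was higher there than in any other tumour. Markers of neutrophils thus differed among themselves in the tumour with most Ltf, and their part in the Ltf level was not tested. Ly6g was at no more than 0.342 CPM anywhere. In whole tumours more cells of a type and more RNA per cell cannot be told apart.

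Lcn2 (ENSMUSG00000026822.14, chromosome 2, 32384633 to 32388252) had 505.9, 62.2, 6344, 555.7, 666.8 and 894.2 CPM in AAV-∆mut-p53 tumours 1 to 6, against 182.9, 363 and 492.8 CPM in AAV-Control tumours 1 to 3. In AAV-∆mut-p53 3 it was number 7 of all genes by counts. Of the AAV-∆mut-p53 tumours 5 lay above every AAV-Control tumour and number 2, low in Epcam, lay below all of them. The log2 fold change of 2.12 (SE 1.18) was 0.63 without AAV-∆mut-p53 3. Lcn2 exceeded Ltf 2.17-fold to 58.2-fold in AAV-∆mut-p53 tumours and 29.4-fold to 134-fold in AAV-Control tumours, with the smallest ratios in AAV-∆mut-p53 1 and 6.

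Haptoglobin binds haemoglobin released from red cells, and C3 is the protein on which all complement pathways converge. Hp (ENSMUSG00000031722.10, chromosome 8, 109575128 to 109579172) had 142.3, 68.6, 124, 556.9, 31.2 and 568 CPM in AAV-∆mut-p53 tumours 1 to 6, against 41.3, 21.5 and 80.7 CPM in AAV-Control tumours 1 to 3. Tumours 4 and 6 stood well above the rest, while numbers 2 and 5 lay within the AAV-Control range. The means were 248.5 ± 246.4 CPM (SD, n = 6) in AAV-∆mut-p53 and 47.8 ± 30.1 CPM (SD, n = 3) in AAV-Control, a log2 fold change of 2.38 (SE 0.96), between 1.95 and 2.97 with each tumour left out.

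C3 (ENSMUSG00000024164.15, chromosome 17, 57203970 to 57228136) had 168.8, 979.8, 132.8, 228.2, 128.7 and 83.8 CPM in AAV-∆mut-p53 tumours 1 to 6, against 25.7, 50.6 and 80.1 CPM in AAV-Control tumours 1 to 3. The groups did not overlap, with AAV-∆mut-p53 6 just above AAV-Control 3. Its log2 fold change was 2.46 (SE 0.86), and 1.53 without AAV-∆mut-p53 2. In AAV-∆mut-p53 2, the tumour with most C3, the summed level of 10 fibroblast markers was 37300 CPM, against at most 8610 CPM in any other tumour, and that of 15 macrophage markers 4555 CPM, against at most 1947 CPM. Their part in the C3 level was not tested.

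Chil1, also called YKL-40 in humans, binds chitin without cutting it and is made by macrophages, neutrophils and secretory epithelium. Chil1 (ENSMUSG00000064246.10, chromosome 1, 134182176 to 134190181) had 58.1, 32.4, 24.4, 89.7, 76.5 and 4.48 CPM in AAV-∆mut-p53 tumours 1 to 6, against 7.62, 3.07 and 159.3 CPM in AAV-Control tumours 1 to 3. The highest and the lowest tumour were both AAV-Control, so the groups overlapped fully. Over all 9 tumours its log2 fold change came to -0.25 (SE 1.09), but leaving out AAV-Control 3 gave 3.15, so its sign rested on that tumour.

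Every AAV-∆mut-p53 tumour lay above every AAV-Control tumour for Ltf and C3, 2 of the 8 genes, and for 1.47% of all tested genes. The opposite held for 0 of the 8 and for 1.59% of all tested genes. All 8 genes passed the filter on low counts. The fitted mean was higher in AAV-∆mut-p53 tumours for 7 of the 8, and for 55.6% of all tested genes. The median log2 fold change was 2.25 over the 8, or 1.95 without AAV-∆mut-p53 2, and 0.09 over all tested genes. These counts restate the values the set was chosen with.

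**Figure D2:**
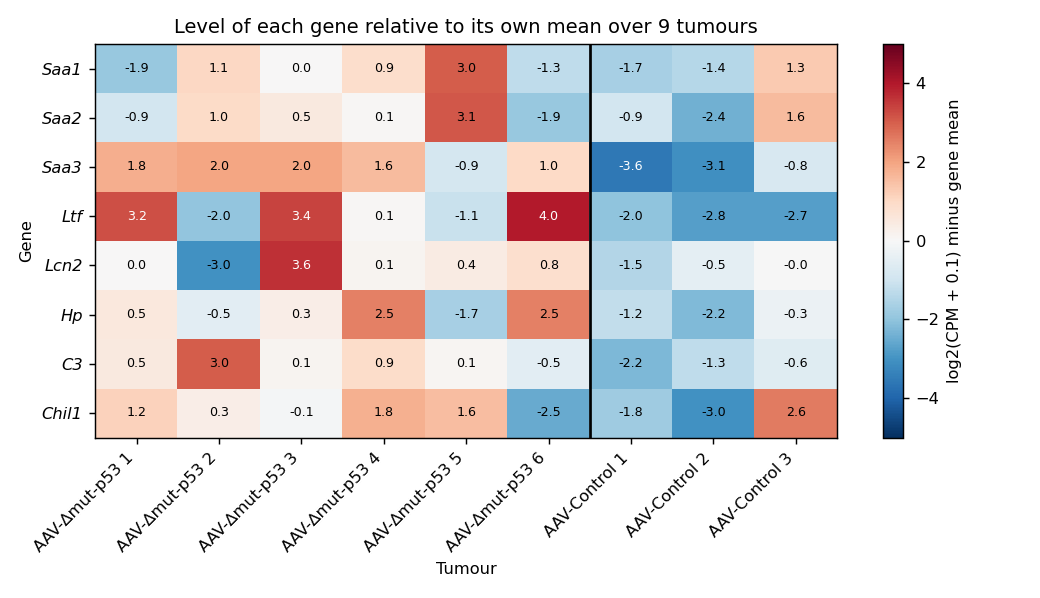
Level of each of the 8 genes in each tumour as log2(CPM + 0.1) minus the mean of that gene over the 9 tumours, with AAV-∆mut-p53 tumours left of the black line and AAV-Control tumours right of it. AAV-∆mut-p53 2 is high in C3 and low in Ltf and Lcn2, AAV-∆mut-p53 5 is high in Saa1 and Saa2, and AAV-Control 3 is high in Chil1.

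AAV-∆mut-p53 4 and 5, the tumours that may share a mouse, differed from each other for most of these genes. AAV-∆mut-p53 5 held 31.2 CPM of Hp and AAV-∆mut-p53 4 held 556.9 CPM, a 17.8-fold difference. Saa3 differed 5.55-fold in the same direction, and Saa1 and Saa2 4.81-fold and 9.91-fold in the opposite one. Lcn2 and Chil1 were within 1.2-fold of each other in both tumours.

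Agreement among the 8 genes was examined after the mean of each group had been subtracted, which removes the difference the set was chosen with. Over the 9 tumours 15 of the 28 pairs had a positive Pearson r of log2(CPM + 1), with a median of 0.0294. Saa1 and Saa2 had r = 0.969 and shared reads may add to it. Next came Ltf with Lcn2 (r = 0.64), Saa2 with Chil1 (r = 0.628) and Saa1 with Chil1 (r = 0.603). Saa3 had r = -0.391 with Saa1, -0.352 with Saa2 and 0.502 with C3. The most negative pairs were Saa1 with Ltf (r = -0.715) and Ltf with C3 (r = -0.676). Before subtraction r was 0.644 for Ltf with Lcn2 (Spearman's rho = 0.767), and 0.342 without the 2 tumours farthest from the median of Ltf. For Saa3 with C3 it was 0.779 (rho = 0.833), and 0.542 without the 2 farthest in Saa3. Such values hold the group difference as well, so they do not show how steady r is after subtraction. Saa1 with Saa3 had r = 0.0123 before subtraction (rho = 0.1), and 0.554 without the 2 tumours farthest in Saa1. Saa2 with Saa3 had r = -0.0151 (rho = 0.283), and 0.619 without the 2 farthest in Saa2. Ltf with C3 had r = 0.0933 (rho = 0.467), and 0.245 without the 2 farthest in Ltf, again before subtraction. Saa1 with Ltf had r = -0.35 (rho = -0.133), and -0.224 without the 2 farthest in Saa1. These are descriptions over 9 libraries of which 2 may share a mouse.

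**Figure D3:**
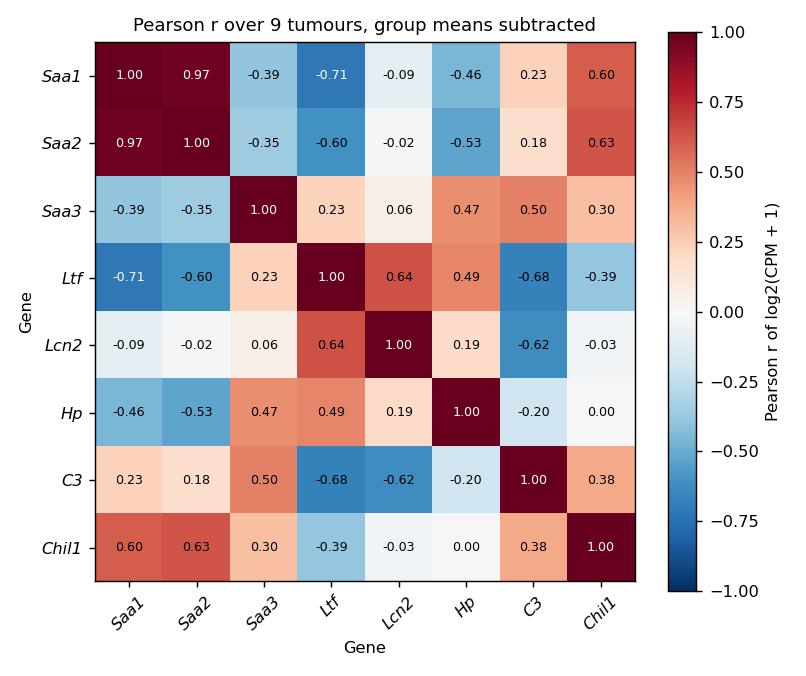
Pearson r between the 8 genes over the 9 tumours, on log2(CPM + 1) with the group means subtracted. Saa1 and Saa2 stand at 0.969 with each other and at -0.715 and -0.605 with Ltf, while Ltf stands at 0.64 with Lcn2.

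Other genes that ran most like each of the 8 were ranked by the same r over the 9 tumours. Picking the highest of many genes over 9 tumours gives a high r by itself, so these values only describe. Ltf was followed most closely by Lrrc26, which encodes a subunit of potassium channels (r = 0.986, and 0.989 before subtraction, with Spearman's rho = 0.95). Hdc, the enzyme that makes histamine, was among the 3 most like Saa3 (r = 0.925, and 0.97 before subtraction, with rho = 0.983). Agpat3, also among the 3 and above Hdc, had r = 0.946, but 0.12 before subtraction (rho = 0.25). The first for Saa3 was Narf (r = 0.949), for Lcn2 Prpf6, a splicing factor (r = 0.974), for Hp Tmem206, a chloride channel (r = 0.978), and for C3 Atp8b4, a phospholipid flippase (r = 0.975). For Saa1 it was Zfp759 (r = 0.964), for Saa2 Mpp3 (r = 0.959) and for Chil1 Rnpc3 (r = 0.963). Values before subtraction were also taken without the 2 tumours farthest from the median of the first gene. There r was 0.989 for Ltf with Lrrc26, 0.957 for Saa3 with Hdc, 0.0563 for C3 with Atp8b4 and 0.086 for Saa2 with Mpp3. Over all 9 tumours the last 2 pairs had r = 0.838 and 0.664 before subtraction, so on that scale both relations rested on the tumours left out. For Ltf, AAV-∆mut-p53 3 and 6 were left out and number 1 was kept, at 233 CPM of Ltf and 3.73 CPM of Lrrc26. The other tumours kept had at most 26.0 and 1.0 CPM, so that r rested largely on number 1.

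Fold changes of the 8 genes were recomputed with each tumour left out. Saa3, Ltf, Lcn2, Hp and C3 were higher in AAV-∆mut-p53 tumours in all 9 of these fits. Saa1 was as well, though by as little as 0.14, while Saa2 and Chil1 changed sign.

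**Figure D4:**
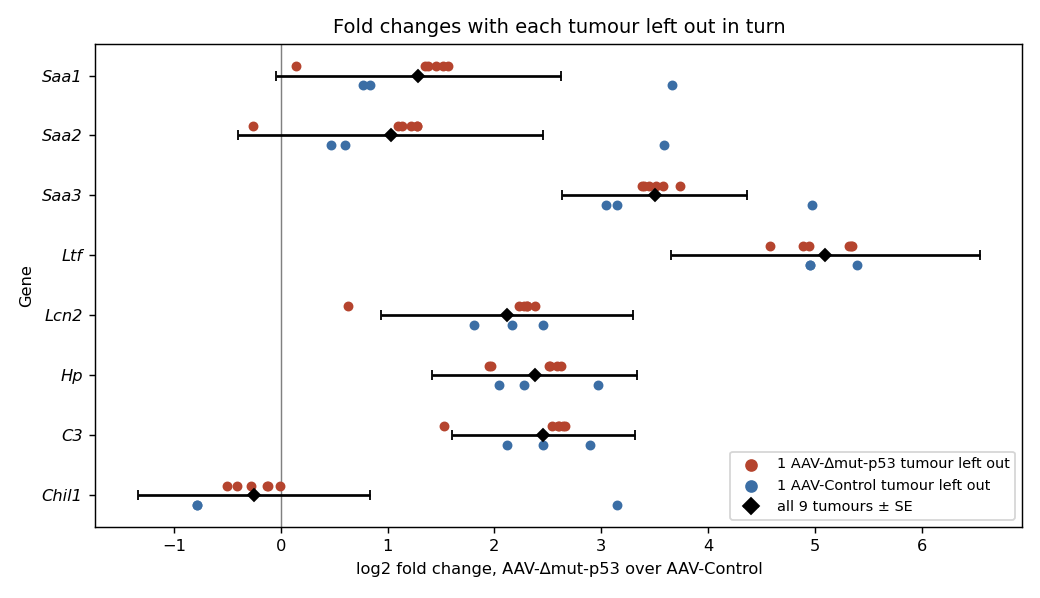
Log2 fold change of AAV-∆mut-p53 over AAV-Control for the 8 genes, with all 9 tumours (black diamonds, bars are SE) and with 1 tumour left out (points, by the group it belongs to). Leaving out AAV-Control 3 moves Saa1 to 3.66, Saa2 to 3.59 and Chil1 to 3.15, and leaving out AAV-∆mut-p53 3 moves Lcn2 to 0.63.

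Other genes of the same system were taken from lists, each read beside the background. EdgeR's quasi-likelihood test called none of their genes at an FDR of 0.05. Over all tested genes 3.82% had an unadjusted p under 0.05 and a higher level in AAV-∆mut-p53 tumours, and 3.26% a lower one. DESeq2 called 0.306% of tested genes as higher and 0.224% as lower at its FDR of 0.05.

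Other epithelial and secreted defence proteins had the largest median of the 7 lists, 1.95 on the log2 scale over 26 tested genes of 38. Of these 24 had a higher mean, 7 of them at an unadjusted p under 0.05, and 2 a lower one. Pigr, the receptor that carries immunoglobulin A into secretions, averaged 13.8 ± 14.1 CPM (SD, n = 6) in AAV-∆mut-p53 and 1.42 ± 1.45 CPM (SD, n = 3) in AAV-Control (FDR = 0.677 by edgeR, 0.0149 by DESeq2), with every AAV-∆mut-p53 tumour above every AAV-Control tumour. Slpi, a protease inhibitor of secretions, averaged 75.1 ± 94.5 CPM (SD, n = 6) in AAV-∆mut-p53 and 4.06 ± 4.04 CPM (SD, n = 3) in AAV-Control (FDR = 0.677 by edgeR, 0.0291 by DESeq2). Both were called by DESeq2 and not by edgeR. Without AAV-∆mut-p53 6 the log2 fold change was 2.51 for Pigr and 3.31 for Slpi, and without AAV-Control 3 it was 4.53 and 5.36.

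The most abundant genes of that list were Wfdc18, Clu and Lyz2. Wfdc18, of the same inhibitor family as Slpi, averaged 939.6 ± 980.1 CPM (SD, n = 6) in AAV-∆mut-p53 and 116.9 ± 126.8 CPM (SD, n = 3) in AAV-Control. AAV-∆mut-p53 2, at 13.4 CPM, lay below every AAV-Control tumour, and the log2 fold change of 3.01 became 2.31 without AAV-∆mut-p53 6 and 4.38 without AAV-Control 3. Clu, the chaperone clusterin, reached 3630.3 CPM in AAV-∆mut-p53 6, and its log2 fold change of 3.66 was 1.95 without that tumour. Lyz2, the lysozyme of macrophages and neutrophils, differed by 0.59 on the log2 scale, and by -0.05 once AAV-∆mut-p53 2 was left out.

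Of 26 other acute-phase proteins 13 were tested, 10 with a higher mean and 3 with a lower one, and the median log2 fold change was 1.05. That median was 0.69 without AAV-∆mut-p53 2 and 1.67 without AAV-Control 3. Ceruloplasmin (Cp), a copper-carrying oxidase, was the most abundant, with 633.6, 193.3, 1434, 532.5, 161.7 and 1869.7 CPM in AAV-∆mut-p53 tumours 1 to 6, against 76.2, 122.3 and 718.3 CPM in AAV-Control tumours 1 to 3. The fibrinogen chain genes Fgb and Fgg were lower at an unadjusted p under 0.05, and both rested on AAV-Control 1, which held 372 and 111 CPM. Without AAV-Control 1 their log2 fold changes were 3.46 and 0.15. Ptx3, a pentraxin made in tissues and named here after its values were seen, was the 1 gene with a higher level at an unadjusted p under 0.05, and without AAV-∆mut-p53 2 there were 0.

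The liver is the usual source of Saa1, Saa2, Hp and C3, and markers of hepatocytes differed in level from gene to gene. Alb, the defining hepatocyte gene, was at no more than 0.832 CPM, and Apoa1 at 0.0407 to 0.67 CPM in AAV-∆mut-p53 and 1.13 to 2.34 CPM in AAV-Control tumours. The summed level of 14 hepatocyte markers was 1.57 to 92.9 CPM in AAV-∆mut-p53 and 3.67 to 375 CPM in AAV-Control tumours, the last of these being nearly all Fgb in AAV-Control 1. Of 14 genes 5 were tested, 1 with a higher and 4 with a lower mean. The higher one was Cyp2e1, a cytochrome of hepatocytes that fat tissue also makes, with 0.0899, 84.9, 26.2, 2.29, 4.82 and 0.244 CPM in AAV-∆mut-p53 tumours 1 to 6, against 0.105, 0.667 and 1.15 CPM in AAV-Control tumours 1 to 3. Its difference had an unadjusted p of 0.0372 by edgeR and an FDR of 0.0712 by DESeq2. Apoa1, lower in every AAV-∆mut-p53 tumour, had a log2 fold change of -2.84 (unadjusted p = 0.00256 by edgeR, FDR = 0.0698 by DESeq2). At an unadjusted p under 0.05 by edgeR 1 marker was higher and 2 were lower. The part of hepatocytes in the levels of the 8 genes was not tested. Serpina1c was at 0 in every tumour.

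Adipocytes and milk-secreting cells can make Saa3, Hp and Ltf as well. The summed level of 11 adipocyte markers was 38.9 to 730 CPM in AAV-∆mut-p53 and 109.8 to 215 CPM in AAV-Control tumours, highest in AAV-∆mut-p53 2. Of the 11, 7 had a higher mean, at a median log2 fold change of 1.36. Without AAV-∆mut-p53 2 there were 4 of 11, at a median of -0.48. Of 12 milk secretion genes 7 were tested and 6 had a higher mean, 4 at an unadjusted p under 0.05. DESeq2 called Btn1a1, a protein of the milk fat globule, and the casein gene Csn2, and Btn1a1 and Csn1s1 lay higher in every AAV-∆mut-p53 tumour than in any AAV-Control tumour. Btn1a1 was at 3.28 to 41.9 CPM in AAV-∆mut-p53 tumours, highest in number 6, and at 0.634 to 1.26 CPM in AAV-Control tumours. Csn1s1 was at 1.77 to 432.7 CPM in AAV-∆mut-p53 tumours, highest in number 3, and at 0.141 to 1.47 CPM in AAV-Control tumours. The summed level of the list was 594 to 3371 CPM in AAV-∆mut-p53 and 366 to 2508 CPM in AAV-Control tumours. AAV-∆mut-p53 3 and 6, both high in Ltf, lay above the other AAV-∆mut-p53 tumours. AAV-∆mut-p53 1, also high in Ltf at 233 CPM, had the lowest sum of its group, 594 CPM. The sum of 2508 CPM in AAV-Control 2, which had 3.64 CPM of Ltf, was mostly Csn3, at 1457 CPM, and Mfge8, at 944.9 CPM. What part these cells have in the levels of the 8 genes was not tested.

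Among 26 other complement genes found, 22 were tested, and 21 had a higher mean in AAV-∆mut-p53 tumours, with a median log2 fold change of 1.07. Of these, 4 had an unadjusted p under 0.05, all higher, and DESeq2 called none. C1qa and C1qb, chains of the recognition protein C1q, averaged 246 ± 153 and 184 ± 124 CPM (SD, n = 6) in AAV-∆mut-p53 and 120 ± 20.5 and 100 ± 7.13 CPM (SD, n = 3) in AAV-Control. AAV-∆mut-p53 5, at 59.7 and 51.5 CPM, lay below every AAV-Control tumour for both. Their log2 fold changes of 1.04 and 0.87 were 0.71 and 0.47 without AAV-∆mut-p53 2. Cfi, the protease that inactivates C3b, lay higher in every AAV-∆mut-p53 tumour, at a mean of 3.65 ± 4.82 CPM (SD, n = 6), than in any AAV-Control tumour, at 0.33 ± 0.366 CPM (SD, n = 3). Its log2 fold change was 3.45 (SE 1.21), with 2.41 without AAV-∆mut-p53 2 and 4.86 without AAV-Control 3. Without AAV-∆mut-p53 2 the list median was 0.62. Macrophages make C1q, and of 15 macrophage markers 14 were tested and all 14 had a higher mean, at a list median of 1.0 on the log2 scale, or 0.47 when AAV-∆mut-p53 2 was left out. Their summed level was 567.8 to 4555 CPM in AAV-∆mut-p53 and 828 to 1201 CPM in AAV-Control tumours. Plasma and B cell markers were separated by group in their sum over 12 genes, at 242 to 1285.5 CPM in AAV-∆mut-p53 and 138 to 158 CPM in AAV-Control tumours. Xbp1 alone held 129.2 to 283.3 CPM and 84.5 to 92.3 CPM of these sums. Of 11 tested, 10 had a higher mean, at a list median of 2.85. Without AAV-∆mut-p53 2 there were 6 of 9, at a median of 1.11. DESeq2 called the immunoglobulin genes Ighm, Igkc and Iglc1, and the counts of Iglc1 are uncertain because near copies share reads. The part of these cells in this list and the others was not tested.

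Among 29 receptors and binding partners of the 8 proteins 27 were tested, 22 with a higher and 5 with a lower mean. The median log2 fold change was 1.14, and 0.46 without AAV-∆mut-p53 2. Fpr2, a receptor of serum amyloid A on myeloid cells, had 1.30, 2.49, 2.05, 1.0, 0.443 and 1.18 CPM in AAV-∆mut-p53 tumours 1 to 6, against 0.386, 0.434 and 0.396 CPM in AAV-Control tumours 1 to 3. Lrp2, megalin, which takes up lipocalin 2 and many other ligands, ran the other way, with at most 2.93 CPM in AAV-∆mut-p53 tumours and at least 3.64 CPM in AAV-Control tumours. Its log2 fold change was -2.54 (SE 0.72, FDR = 0.677 by edgeR, 0.0825 by DESeq2).

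Cytokines that induce acute-phase genes were near the detection limit in most cases, and 11 of 18 found were tested. Of these 8 had a higher and 3 a lower mean, and Il22 and Il20 had no count in any tumour. Their median log2 fold change was 1.27, with 0.6 without AAV-∆mut-p53 3 and 1.72 without AAV-Control 3. Lif, of the interleukin 6 family, averaged 18.9 ± 19.1 CPM (SD, n = 6) in AAV-∆mut-p53 and 1.98 ± 1.21 CPM (SD, n = 3) in AAV-Control (FDR = 0.677 by edgeR, 0.0379 by DESeq2). It was at 44.4 and 42.3 CPM in AAV-∆mut-p53 3 and 6 and at 2.21 CPM in AAV-∆mut-p53 5, below AAV-Control 3 at 3.29 CPM. Il1b, interleukin 1 beta, averaged 17.9 ± 12.3 CPM (SD, n = 6) in AAV-∆mut-p53 and 3.18 ± 3.61 CPM (SD, n = 3) in AAV-Control. In AAV-∆mut-p53 2 and 5 it was at 3.56 and 2.52 CPM, below AAV-Control 3 at 7.29 CPM. All 19 cytokine receptors were tested, 14 with a higher and 5 with a lower mean. Their median log2 fold change of 0.49 was the smallest of the 7 lists. By edgeR 0 receptors were higher and 1, Prlr, was lower at an unadjusted p under 0.05. Prlr stood at -1.95 on the log2 scale, and at -0.23 once AAV-Control 1 was left out. Lifr, the receptor of Lif, stood at -0.82, with 5 of 6 AAV-∆mut-p53 tumours below every AAV-Control tumour.

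Of 25 transcription factors and feedback genes of the NF-kB, STAT3 and C/EBP pathways 23 were tested, 22 with a higher mean and 1, Cebpa, with a lower one. Of these, 8 had an unadjusted p under 0.05, and 12 without AAV-∆mut-p53 2. Cebpd, which encodes C/EBP delta, had 69.8, 42.6, 46.3, 82.7, 5.62 and 47.9 CPM in AAV-∆mut-p53 tumours 1 to 6, against 12.2, 7.30 and 9.63 CPM in AAV-Control tumours 1 to 3. AAV-∆mut-p53 5 lay below all AAV-Control tumours. That tumour was the lowest of the 6 in Saa3 and Hp, but lay above every AAV-Control tumour in Saa1, Saa2, Ltf, Lcn2 and C3. A relation of Cebpd to these genes was not tested. The log2 fold change of Cebpd was 2.34 (SE 0.68, FDR = 0.677 by edgeR, 0.0474 by DESeq2). Stat3 averaged 262 ± 97.1 CPM (SD, n = 6) in AAV-∆mut-p53 and 133 ± 34.7 CPM (SD, n = 3) in AAV-Control. The groups overlapped, with AAV-∆mut-p53 2 and 5, at 151.5 and 156 CPM, below AAV-Control 3 at 172.7 CPM. Zc3h12a, an RNase that limits cytokine transcripts, was at 6.42 to 16.8 CPM in AAV-∆mut-p53 and 2.73 to 5.70 CPM in AAV-Control tumours, with no overlap.

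**Figure D5:**
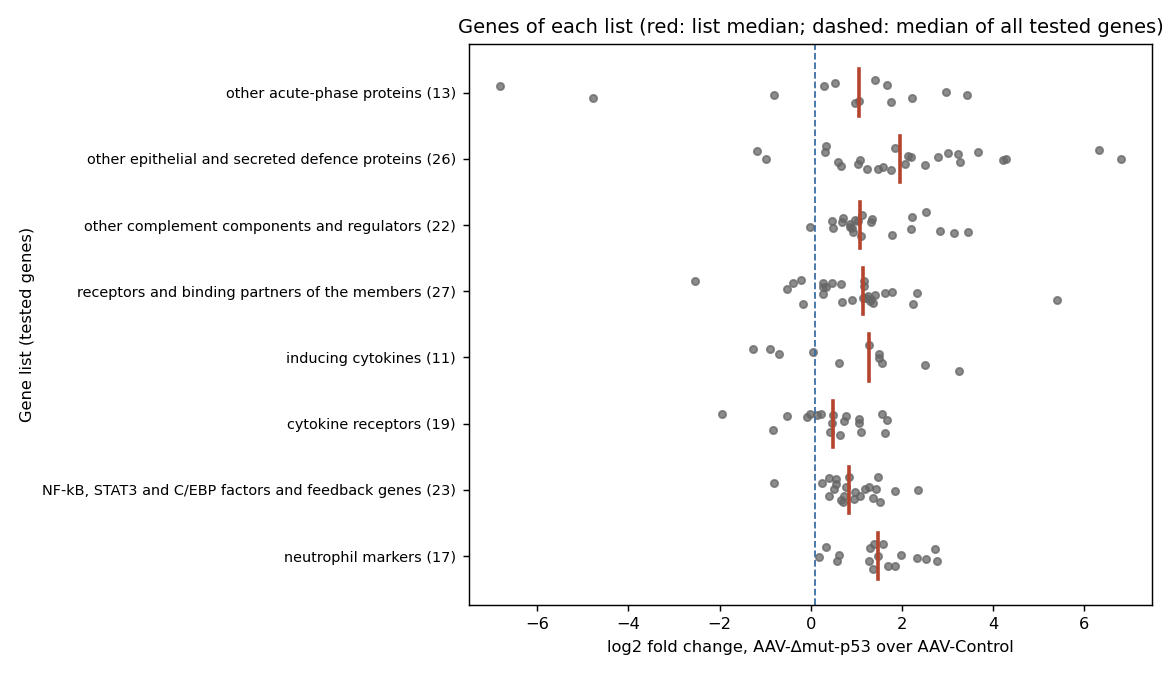
Log2 fold change of AAV-∆mut-p53 over AAV-Control for every tested gene of 7 lists of related genes and of the neutrophil markers, with the median of each list in red and that of all tested genes dashed. The list medians lie between 0.49 and 1.95, and the median of all tested genes is 0.09.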

How the data were processed

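The authors deposited raw read counts per Ensembl gene, 1 column per tumour. The submitters' processing notes name STAR 2.6.0b, DESeq2 and GRCm38 without saying what each was used for. How reads were counted, with which strand setting and which annotation, is not given in the sources used. Columns were tied to samples by title, and 0 were left over. Symbols were found for 49326 of 49585 identifiers, and positions and exon lengths came from GENCODE M21 on GRCm38.

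Genes kept by edgeR's filterByExpr (minimum count 10) were scaled by TMM. The test was the quasi-likelihood test of edgeR 4.0.16 (R 4.3.3), 2-sided, without covariates, with Benjamini-Hochberg adjusted p-values. Log2 fold changes are AAV-∆mut-p53 over AAV-Control. Their SE is the absolute log2 fold change divided by the square root of the F statistic of that test. CPM use TMM-scaled library sizes. Alternatives were DESeq2 1.42.0, limma 3.58.1 voom with quality weights, other scaling and filters, the 2 tumours with a shared title number summed, and each tumour left out. The edgeR, DESeq2 and voom fits were tested on simulated counts. The 8 genes, the lists and the tests were chosen with earlier results of these data known. Of each list the text names the 3 most abundant tested genes, the 2 with the smallest p or some of these, and of the genes most like each of the 8 some of the first 3. Ptx3 was named after its values were seen, as were the defining markers (Epcam, Camp, Ngp, Ly6g, Alb, Apoa1) and Saa4. Csn2 and Iglc1 are named because DESeq2 called them.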

Additional observations from a re-analysis of the deposited data

Results flagged for a closer look

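In the group of 6 AAV-∆mut-p53 tumours, 4 values lay far above the other 5, by Dixon's test of the gap to the nearest tumour at its 95% critical value. That value flags about 1 in 20 groups by chance only where values are normally spread. CPM were used without logs and need not be so spread, so the rate of chance flags is not known. The flags of Saa1 and Saa2 fall in the same tumour and are not separate, since these genes can share reads. Lcn2 was at 6344 CPM in AAV-∆mut-p53 3, with the next tumour at 894.2 CPM. C3 was at 979.8 CPM in AAV-∆mut-p53 2, with the next tumour at 228.2 CPM. Saa1 was at 4.29 CPM and Saa2 at 4.43 CPM in AAV-∆mut-p53 5, with the next tumours at 1.02 and 0.924 CPM. Groups of 3, such as AAV-Control with its 159.3 CPM of Chil1 in 1 tumour, were not tested.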

How the results depend on the processing

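With DESeq2 104 genes passed an FDR of 0.05, against 0 with edgeR and 0 with limma voom. Genes at an unadjusted p under 0.05 numbered 1387 with edgeR, 2443 with no filter on low counts, and 874 to 2009 with each tumour left out, the fewest without AAV-Control 2. Without each tumour in turn, 0 genes passed edgeR's FDR. With limma voom the log2 fold change of Chil1 was 1.75, that of Ltf was 3.70, against 5.10 with edgeR, and that of Saa3 was 4.19. The list medians with limma voom were 0.37 for inducing cytokines, 0.53 for receptors and binding partners, 0.51 for complement, 1.39 for defence proteins, 0.88 for acute-phase proteins, 0.34 for cytokine receptors and 0.64 for the transcription factors, each below its edgeR value. With each tumour left out it ran from -0.78 to 3.15 for Chil1, from -0.26 to 3.59 for Saa2, from 0.14 to 3.66 for Saa1, from 3.05 to 4.97 for Saa3, from 0.63 to 2.46 for Lcn2 and from 1.53 to 2.90 for C3. The cause was not tested. Saa1 had 1 to 9 counts in 5 of the 9 tumours, which limits its precision. No paired analysis was possible because the labels give no replicate numbers that the groups share.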
